A study of Ovis aries with 6 samples.

Results

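APLN, APLNR and ESM1 are 3 of the 30574 genes in the deposited count tables of single cells from the ovary of Hu sheep. They were read in endothelial barcodes, which are the retained barcodes with at least 5 unique molecular identifiers (UMI, each counting 1 captured RNA molecule) summed over PECAM1, CDH5 and KDR. By this rule 14364 of 36457 retained barcodes (39.4%) were endothelial. The 3 genes were chosen by their UMI counts in these barcodes, in other cell types and in each ewe, so their levels and their co-detection are given below as a description with no test. In all, 6 libraries were made by droplet-based sequencing of 3' transcript ends, 1 from a single ovary of each of 6 ewes in oestrus. The HLS group held 3 ewes with a litter size of at least 3 lambs and the LLS group held 3 ewes with fewer than 2 lambs. All 6 ewes were of the Hu breed, and the ovary was digested with collagenase and trypsin before the cells were captured, so each value is that of cells that survived the digestion. The ewe was the replicate in every test.

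Apelin, encoded by APLN, is a small secreted peptide, and the apelin receptor APLNR is a G-protein-coupled receptor carried mainly by endothelial cells. In growing vessels APLN is known as a gene of the tip cell, the cell that leads a sprout, while APLNR is found in the endothelium behind it and in veins. ESM1, or endocan, is a secreted dermatan sulphate proteoglycan that endothelial cells make in response to VEGF and that is likewise a tip cell gene. The ovary builds and removes capillaries with every follicle and corpus luteum, which makes its endothelium one of the few in the adult that keeps growing.

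The 6 libraries held 7992 to 9135 deposited barcodes and a total of 43329214 to 75549906 UMI each, and 5189 to 7096 barcodes per ewe were retained. Between 5 and 18 retained barcode sequences were shared by any pair of libraries. Endothelial barcodes numbered 1787, 3178 and 1119 in HLS replicates 1, 2 and 3 and 3851, 1419 and 3010 in LLS replicates 1, 2 and 3, with a median depth of 6466 to 12272 UMI. HLS replicate 2 and LLS replicate 1 stood apart from the other ewes. They supplied 1914 and 2297 of the 4324 cells of the largest endothelial-like cluster, to which each of the other 4 ewes gave between 9 and 48 cells, and results that rest on these ewes are given with and without them.

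The gate was checked against endothelial markers that it did not use. On average over ewes, 83.3% of endothelial barcodes held a UMI of VWF, 92.9% of EMCN and 82.1% of CD34. The shares were lower for FLI1 (80.1%), EGFL7 (69.8%) and TIE1 (63.0%). Of the 14364 barcodes, 12844 lay in endothelial-like clusters, 1007 in clusters of dividing cells, 353 in immune-like clusters and 160 elsewhere. The summed level of 9 immune markers in endothelial barcodes ranged from 0.794 to 7.04 UMI per 10000 over ewes, against 50.9 to 93.0 in immune-like cells, and the 8 stromal markers ranged from 1.71 to 4.59 against 96.0 to 317. The median endothelial barcode held no UMI of the immune, perivascular, granulosa or theca markers and 1 UMI of the stromal ones. At the limit of the gate, 707 barcodes with exactly 5 UMI carried 0.146 UMI per 10000 of APLN, 0.223 of APLNR and 0.292 of ESM1, and the 671 barcodes just outside, with 4 UMI, carried 0.259, 0.122 and 0.352.

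Transcripts of all 3 genes lay mostly in the endothelium. Of the retained UMI, endothelial barcodes held 93.8% of 8884 for APLN, 96.7% of 14171 for APLNR and 96.6% of 53207 for ESM1. The 19055 barcodes that were neither in the gate nor in an endothelial-like or cycling cluster held 3.68%, 2.29% and 2.57% of them. Summed over endothelial barcodes, the level was 0.536 ± 0.179 UMI per 10000 for APLN, 0.625 ± 0.498 for APLNR and 2.07 ± 2.23 for ESM1 (mean ± SD, n = 6 ewes). The SD of ESM1 exceeded its mean. Within single ewes ESM1 lay above APLNR in each of the 6, with 1.07 to 6.41 ESM1 UMI per APLNR UMI. The place of APLN differed between ewes. ESM1 UMI per APLN UMI ranged from 0.691 in HLS replicate 3 to 16.5 in LLS replicate 1. APLN UMI per APLNR UMI ranged from 0.271 in LLS replicate 1 to 3.26 in HLS replicate 1.

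**Figure D1:**
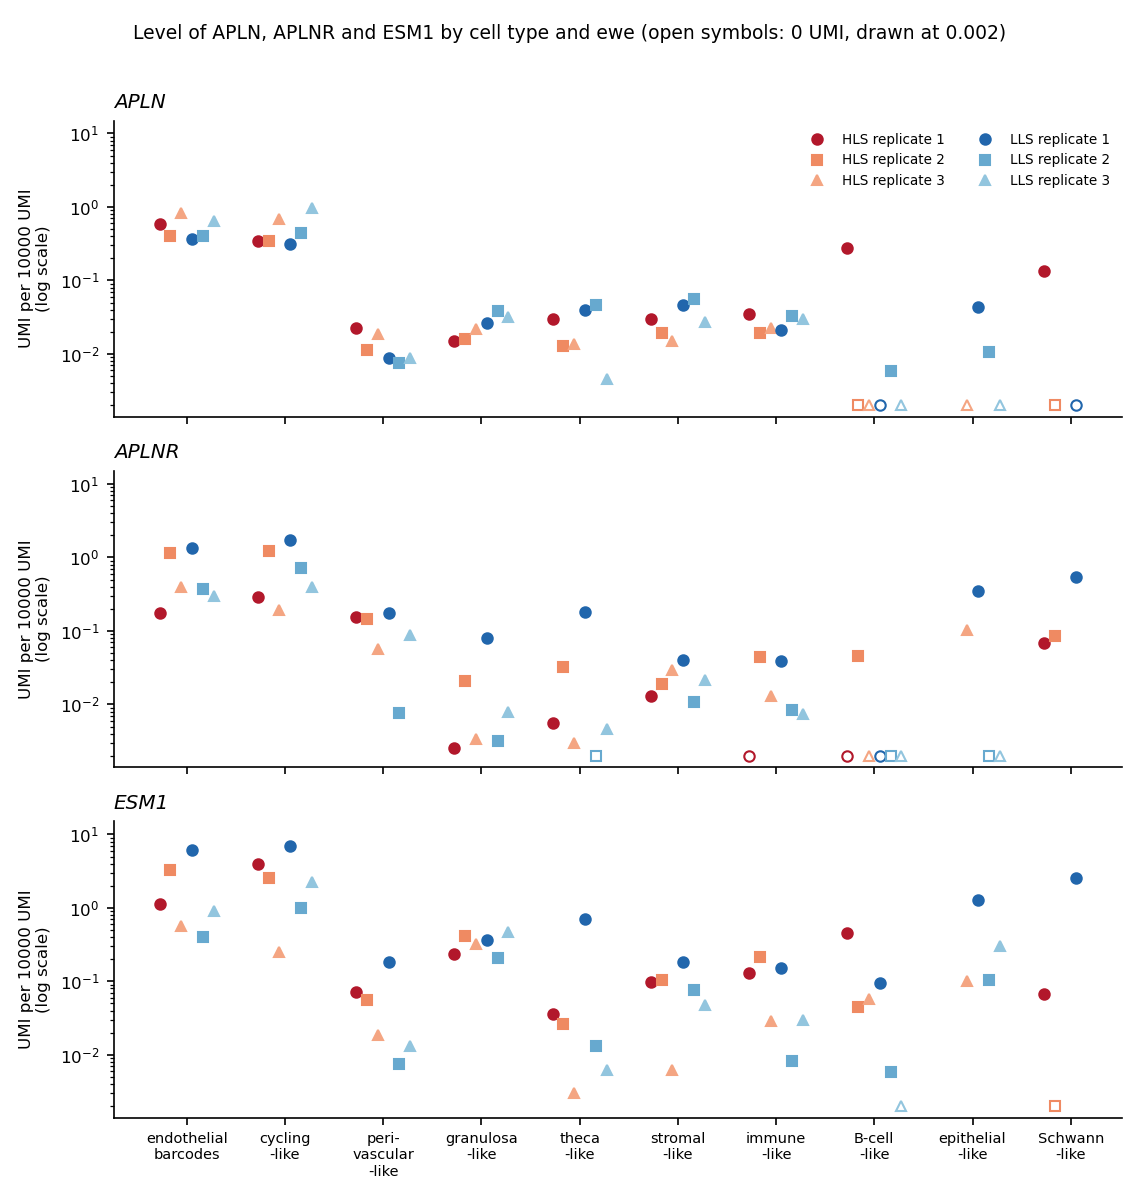
Level of APLN, APLNR and ESM1 in UMI per 10000 UMI (log scale) for endothelial barcodes and for 9 cell types, with 1 symbol per ewe and open symbols for 0 UMI. The 6 endothelial values of APLN lay between 0.369 and 0.818, whereas ESM1 ranged from 0.398 to 6.09 and APLNR from 0.178 to 1.36.

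The ligand and the receptor differed in how they varied between ewes. APLN stood at 0.579, 0.401 and 0.818 UMI per 10000 in HLS replicates 1, 2 and 3 and at 0.369, 0.398 and 0.651 in LLS replicates 1, 2 and 3. APLNR stood at 0.178, 1.14 and 0.392 in the HLS ewes and at 1.36, 0.372 and 0.30 in the LLS ewes. ESM1 stood at 1.14, 3.31 and 0.566 in the HLS ewes and at 6.09, 0.398 and 0.919 in the LLS ewes. HLS replicate 2 and LLS replicate 1 thus carried the highest levels of APLNR and ESM1, whereas for APLN LLS replicate 1 was the lowest and HLS replicate 2 lay just above LLS replicate 2. Both groups overlapped for each gene. In the endothelial-like clusters other than the largest, ESM1 was still highest in these 2 ewes, at 1.21 and 2.58 UMI per 10000 against 0.240 to 0.527 in the other 4, while APLNR ranged from 0.149 to 0.375 over all 6 ewes and was highest in HLS replicate 3.

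Dividing cells, of whose 3 clusters 2 also carried endothelial markers, had pooled means of 0.517 UMI per 10000 for APLN, 0.756 for APLNR and 2.81 for ESM1. These means mix unlike clusters. The 2 with endothelial markers averaged 1.28 and 1.29 for APLN, 1.31 and 1.19 for APLNR and 2.90 and 6.97 for ESM1. The remaining cluster averaged 0.0215, 0.0356 and 0.0821. Outside endothelial and dividing cells, the highest level of any member in a type measured in all 6 ewes was that of ESM1 in granulosa-like cells. These are the hormone-producing cells that surround the oocyte. Their ESM1 level was 0.234, 0.408 and 0.324 UMI per 10000 in HLS replicates 1, 2 and 3 and 0.368, 0.205 and 0.463 in LLS replicates 1, 2 and 3. Granulosa-like cells gave 865 ESM1 UMI for 32 APLNR UMI, a ratio of 27.0, whereas endothelial barcodes gave a ratio of 3.75. The ratio in granulosa-like cells was above that of endothelial barcodes in each of the 6 ewes, by the least in LLS replicate 1 with 4.60 against 4.47. These ratios rest on few APLNR UMI, namely 1, 9 and 3 in HLS replicates 1, 2 and 3 and 15, 2 and 2 in LLS replicates 1, 2 and 3. In 1 granulosa-like cluster of 1503 cells, ESM1 reached 0.394 to 0.663 UMI per 10000 over ewes.

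Free RNA can give a droplet UMI of genes its cell does not express, and its amount was not estimated here. Immune-like cells served as a comparison, and that they lack all 3 genes was assumed and not tested. Cells under 3000 UMI were left out by the thinning. Of barcodes thinned to 3000 UMI, 0.967% of immune-like cells held a UMI of APLN, 0.459% of APLNR and 2.35% of ESM1, against 8.97%, 13.5% and 20.1% of endothelial barcodes (means over 6 ewes). The median depth before thinning was 2995 UMI in immune-like cells and 9755 in endothelial barcodes. Without thinning, 1.21%, 0.762% and 3.38% of immune-like cells held the 3 genes. By the same measure 5.96% of granulosa-like cells held ESM1 and 3.30% of perivascular-like cells, the mural cells that wrap small vessels, held APLNR, or 12.3% and 4.59% without thinning, at median depths of 8116 and 3388 UMI. Perivascular-like cells carried APLNR at 0.152, 0.146 and 0.0565 UMI per 10000 in HLS replicates 1, 2 and 3 and at 0.176, 0.00759 and 0.0872 in those of the LLS group, and LLS replicate 2, the lowest, gave a single UMI. They gave 101 ESM1 UMI for 163 APLNR UMI, a ratio of 0.620. Of the 2 main perivascular-like clusters, the one of 1477 cells averaged 0.128 UMI per 10000 of APLNR and the one of 1123 cells averaged 0.0332.

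Outside endothelial-like and cycling cells, mean levels of APLN ranged from 0.0129 UMI per 10000 in perivascular-like cells to 0.0470 in B-cell-like cells, and those of APLNR in stromal-like and granulosa-like cells were 0.0224 and 0.0197. Theca-like cells, which make androgens, had a mean ESM1 level of 0.133, but LLS replicate 1 alone stood at 0.715 and the highest of the other 5 ewes at 0.0354. Epithelial-like and Schwann-like cells, with 4 and 3 ewes over the minimum of 10 cells, averaged 0.449 and 0.872 for ESM1, and in both LLS replicate 1 was the highest. Their mean levels of APLNR were 0.113 and 0.230, from 17 and 6 UMI. After thinning, 6.11% and 4.17% of them held ESM1 and 2.34% and 6.13% held APLNR, above the shares of immune-like cells. Over all ewes, LLS replicate 1 gave 59 of 82 ESM1 UMI in epithelial-like and 19 of 20 in Schwann-like cells. The ratios of ESM1 to APLNR UMI were 4.56 and 3.33, beside 3.75 in endothelial barcodes. The part of RNA from endothelial cells in these values was not tested.

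Detection of the 3 genes was compared at an equal depth of 3000 UMI, which 13925 of the endothelial barcodes reached and 439 did not. APLN was detected in 11.9%, 8.33% and 10.6% of barcodes of HLS replicates 1, 2 and 3 and in 7.42%, 5.74% and 9.76% of LLS replicates 1, 2 and 3. APLNR was detected in 4.19%, 25.9% and 7.84% of the HLS and in 29.8%, 6.91% and 6.64% of the LLS ewes, and ESM1 in 9.68%, 40.2% and 5.81% of the HLS and in 53.0%, 6.03% and 6.21% of the LLS ewes. Without thinning, the shares ranged from 11.3% to 28.8% for APLN, from 13.9% to 63.9% for APLNR and from 10.7% to 72.6% for ESM1. Again HLS replicate 2 and LLS replicate 1 stood far above the other ewes for the receptor and for ESM1 and within their range for the ligand.

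Co-detection was described by the odds ratio within each ewe, which is the odds of finding the second gene in barcodes with the first, divided by those in barcodes without it. At 3000 UMI, 244 barcodes held both APLN and APLNR, 309 held APLN and ESM1, 1209 held APLNR and ESM1, and 103 held all 3. Barcodes with 1 gene alone were more common, with 769 for APLN, 1024 for APLNR and 2333 for ESM1, and 8243 held none.

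The receptor and ESM1 were the pair found together most regularly. Their odds ratio was 3.55, 1.89 and 1.87 in HLS replicates 1, 2 and 3 and 1.96, 2.85 and 2.45 in LLS replicates 1, 2 and 3. APLN and APLNR gave 1.07, 1.22 and 2.34 in the HLS and 1.24, 1.91 and 2.5 in the LLS ewes. The ratio was above 1 in 6 of 6 ewes for both pairs, although at 5000 UMI that of APLN and APLNR in LLS replicate 1 was 0.944. In LLS replicate 3, for example, 13.5% of APLN-positive barcodes held APLNR against 5.90% of APLN-negative barcodes. APLN and ESM1 gave 1.39, 0.828 and 4.57 in the HLS and 0.731, 2.56 and 2.14 in the LLS ewes, so the ratio was below 1 in the 2 ewes with most ESM1 and above 1 in the other 4. Without thinning, where deeper barcodes hold more of every gene, the geometric means rose from 1.62 to 2.62, from 1.66 to 2.28 and from 2.36 to 4.31 for the 3 pairs in the order APLN with APLNR, APLN with ESM1 and APLNR with ESM1.

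**Figure D2:**
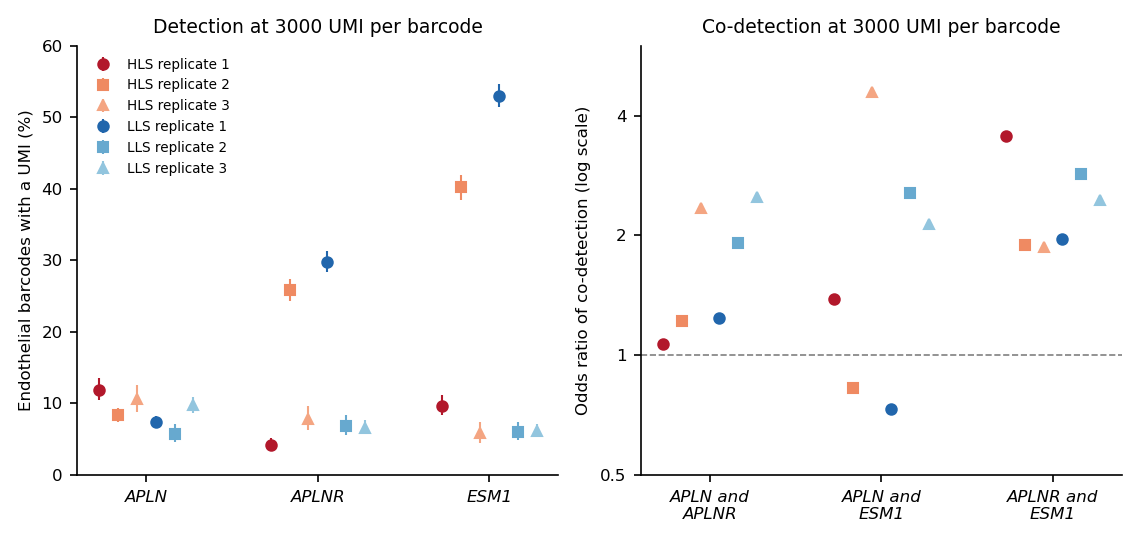
Left, share of endothelial barcodes with a UMI of each gene after thinning to 3000 UMI, with 95% exact binomial intervals that cover counting error only. Right, odds ratio of co-detection in each ewe (log scale, dashed line at 1), with APLNR and ESM1 between 1.87 and 3.55 and APLN and ESM1 between 0.731 and 4.57.

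Pooled over ewes, APLNR and ESM1 were both found mostly in the largest endothelial-like cluster, while APLN was highest in another. UMI of all 3 genes took part in the clustering, so this is a description. The largest cluster, led by FAM167B, COL15A1, OIT3 and ECM1, held 4178 of the 13925 thinned endothelial barcodes but 64.7% of those with APLNR and 66.5% of those with ESM1. Of the APLNR UMI in endothelial-like clusters, it held 3280 of 3531 in HLS replicate 2 and 5078 of 5496 in LLS replicate 1. In HLS replicate 1 and LLS replicates 2 and 3 it held only 42 of 473, 87 of 353 and 51 of 549. For ESM1 these latter ewes had 1053 of 2572, 104 of 356 and 159 of 1052, and HLS replicate 3 gave the cluster 9 cells. Over all barcodes of the cluster, ESM1 was detected in 59.7% and APLNR in 36.7%. APLN was detected in 7.87%, close to its 8.97% over the whole endothelium. ESM1 ranged in this cluster from 2.53 to 23.6 UMI per 10000 over the 5 ewes with at least 10 cells, and the 25 cells of HLS replicate 1 were the highest. APLNR ranged from 0.940 to 2.11.

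APLN was highest in another cluster, led by TNFRSF11B (osteoprotegerin, a decoy receptor), APLN itself and the matrix protease ADAMTS5. Its level there was 1.60, 1.78 and 2.43 UMI per 10000 in HLS replicates 1, 2 and 3 and 2.32, 1.43 and 2.29 in LLS replicates 1, 2 and 3, so that each ewe lay above the 0.818 that was the highest value over all endothelial barcodes. This cluster held 6.97% of the thinned endothelial barcodes and 21.1% of those with APLN, and each ewe gave between 125 and 295 cells to it. APLNR was detected in 16.8% and ESM1 in 11.9% of its barcodes.

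ESM1 was also high where APLN was low. In the cluster led by CXCL12, GJA4 and UNC5B, arterial and guidance genes, ESM1 stood at 9.99, 4.78 and 10.8 UMI per 10000 in the HLS ewes and at 7.87, 2.40 and 6.22 in the LLS ewes, and it was detected in 53.0% of barcodes, while APLN was detected in 3.51%. The cluster led by GJA5 and BMX, also arterial genes, was low for all 3, with 3.43% for APLN, 2.03% for APLNR and 5.93% for ESM1. In the cluster led by CCL21 and PROX1, genes of lymphatic endothelium, APLN and APLNR were each found in 1 of 632 barcodes and ESM1 in 11. The clusters led by PPP1R1B and CA4 and by IL6 and SELP held APLN in 11.3% and 6.08% of barcodes and APLNR in 3.43% and 3.47%. The cluster led by ARFGEF3, ACKR1 and FABP4 held APLNR in 29 of 219 barcodes, APLN in 2 and ESM1 in 4. Of its 247 cells, 195 came from LLS replicate 2. The 2 clusters of dividing cells with endothelial markers held APLN in 14.5% of barcodes each, pooled over ewes. They held APLNR in 39.9% and 29.0% and ESM1 in 45.6% and 52.3%. In each ewe APLNR lay above its level over all endothelial barcodes in both clusters, and APLN and ESM1 did so in most ewes. APLN was lower in both clusters in LLS replicate 1, at 0.347 and 0.291 UMI per 10000 against 0.369. In 1 of the 2 clusters APLN was lower in HLS replicate 2 (0.359 against 0.401). ESM1 was likewise lower in 1 of them in LLS replicate 2 (0.274 against 0.398). Of 322 gated barcodes in an immune-like cluster, 1 held APLN, none held APLNR and 4 held ESM1, so for APLNR a share of up to 0.932% remains possible (3 counts, counting error only).

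**Figure D3:**
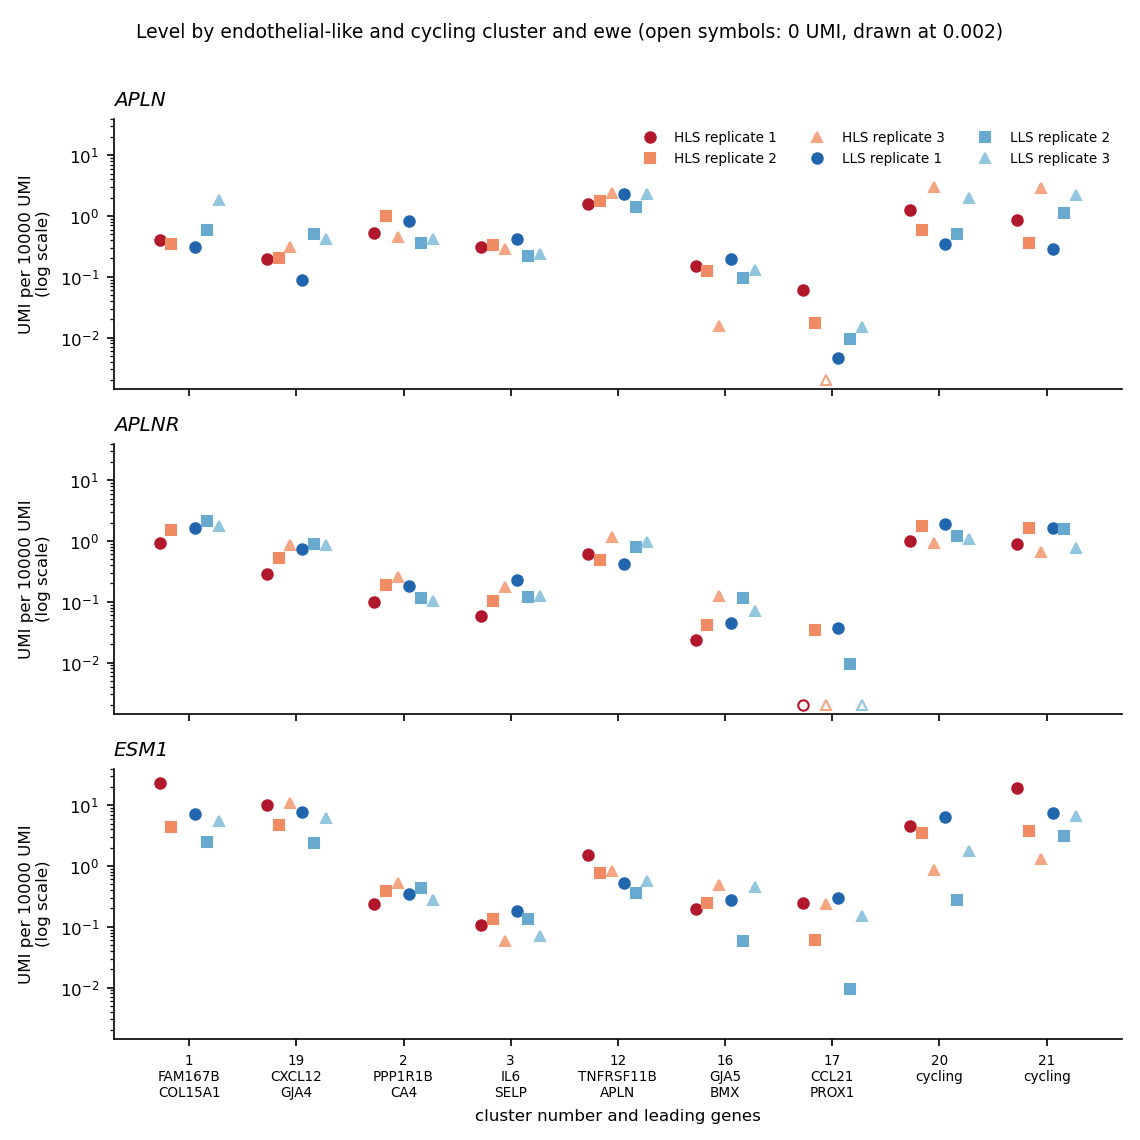
Level of each gene in UMI per 10000 UMI (log scale) in 7 endothelial-like clusters and 2 clusters of dividing cells, named by number and leading genes, with 1 symbol per ewe that gave at least 10 cells. The endothelial-like cluster led by ARFGEF3, ACKR1 and FABP4 is not drawn. APLN was highest in the cluster led by TNFRSF11B and in some ewes of the dividing clusters. ESM1 was highest in the clusters led by FAM167B and by CXCL12 and likewise in some ewes of the dividing clusters.

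Co-detection was also read within single clusters. In the largest cluster the pooled odds ratio of the receptor and ESM1 was 1.05, against 1.22 for APLN with APLNR and 0.845 for APLN with ESM1, and in the cluster led by TNFRSF11B the 3 values were 1.07, 1.29 and 0.986. In the cluster led by CXCL12 the ratio of APLNR and ESM1 was 1.87. APLN and ESM1 gave 2.16 and 2.93 in the clusters led by PPP1R1B and by IL6, and 0.426 and 0.352 in the 2 clusters of dividing endothelium. These ratios pool barcodes of all ewes, which differ in their shares of each cluster.

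The genes found most often in the same barcodes as each member included several of the vessel matrix. Likeness was measured by the phi coefficient of detection in thinned endothelial barcodes, averaged over the 6 ewes, for 9380 genes. For APLN the order was SPARC (0.120), COL4A2 (0.102), SCARA5 (0.0950), CD320 (0.0892) and SERPINH1 (0.0858). For APLNR the genes given here are FAM167B (0.145), COL15A1 (0.143), ROBO1 (0.138) and COL4A2 (0.134). For ESM1 the order was COL15A1 (0.244), ECM1 (0.169), FAM167B (0.165), ADAM12 (0.165) and LOC114110633 (0.163). All of these values are small and all points share a library and a depth. ESM1 was the 17th gene for APLNR (0.102), and APLNR was the 135th for APLN (0.0461).

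Over the sums of 55 pairs of cell type and ewe, where the points share libraries and the contrast between endothelium and other tissue dominates, the most alike genes were sought among 16837. The highest Pearson correlations of log2(CPM + 1) were with KIF26A (0.870), ERG, ACR, IPO11 and BCL6B for APLN, with FLT4 (0.881), PIEZO2, FAM167B, GIPC3 and SMIM10 for APLNR and with OIT3 (0.817), TM4SF18, FAM167B, SMIM10 and SLCO2A1 for ESM1. FAM167B was thus among the first 5 genes for both APLNR and ESM1 by both measures.

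The remaining genes were compared between positive and negative endothelial barcodes of the same ewe. A barcode was positive with at least 1 UMI of the member after thinning to 3000 UMI, the UMI of each class were summed per ewe, and edgeR's quasi-likelihood test was run with the ewe as a block and with Benjamini-Hochberg adjustment over all genes tested at a threshold of 0.05. Fold changes are log2 values of positive over negative barcodes. The members and the 3 genes of the gate were not counted among the genes tested. Adjusted p-values in the following paragraphs are from this test.

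APLN-positive barcodes were richer in basement membrane and cell cycle genes and poorer in arterial and lymphatic genes. Of 9944 genes, 180 (1.81%) were higher and 281 (2.83%) lower. The split depended on the scaling, since scaling by total UMI without TMM factors gave 237 higher and 239 lower. Without HLS replicate 2 and LLS replicate 1 it was 388 and 409, without LLS replicate 3 alone it was 81 and 189, and without the ewe block it fell to 3 and 15.

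Among the genes that rose in all 6 ewes, LTBP1, which stores latent TGF-beta in the matrix, had the lowest adjusted p. It stood at 121, 120 and 343 CPM in APLN-positive barcodes of HLS replicates 1, 2 and 3 and at 310, 227 and 359 in those of LLS replicates 1, 2 and 3. The negative barcodes had 66.5, 53.7 and 85.6 CPM in the HLS and 62.1, 118 and 105 in the LLS ewes, so both classes did not overlap (log2 fold change 1.60 ± 0.14 SE, adjusted p 8.61e-08). SCARA5, a ferritin receptor, rose most (1.95 ± 0.25, adjusted p 2.29e-05), but only from 3.16 to 3.80 CPM in HLS replicate 1. The serine protease gene MASP1 rose by 1.90 ± 0.23.

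SULF2 and SULF1, which remove sulphate groups from heparan sulphate, rose by 1.19 ± 0.16 and 1.15 ± 0.19, and SULF1 differed in HLS replicate 3 by only 38.1 against 38.0 CPM. TNFRSF11B rose by 1.11 ± 0.26 and the sulphotransferase CHST1 by 1.06 ± 0.21. SULF1, SULF2, MASP1 and TNFRSF11B were also among the 10 leading genes of the cluster in which APLN was highest. The mitotic genes HMMR and CEP55 rose by 1.34 ± 0.19 and 1.22 ± 0.29, of which CEP55 did not pass without LLS replicate 3 (0.84, adjusted p 0.181) or in endothelial-like clusters alone (0.19, adjusted p 0.881). TNFRSF11B did not pass without LLS replicate 1 (0.88, adjusted p 0.0730), without LLS replicate 3 (0.99, adjusted p 0.11) or without both ewes of the largest cluster (0.94, adjusted p 0.0516).

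CYP11A1, the first enzyme of steroid synthesis and here a theca marker, rose by 1.12 ± 0.18 (adjusted p 0.000361). The study used it as a marker of a granulosa cell subtype. It stood at 211, 60.7 and 136 CPM in APLN-positive barcodes of the HLS ewes and at 167, 259 and 150 in those of the LLS ewes, against 147, 31.8 and 111 and 32.6, 76.6 and 85.4 CPM in the negative ones. The summed level of the 6 theca markers, to which CYP11A1 belongs, was 0.445 to 1.61 UMI per 10000 in endothelial barcodes. The other 5 theca markers did not reach the limit of low counts in this comparison. The part of RNA from theca, granulosa or other cells in the difference was not tested.

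Among the 10 genes with the largest falls in APLN-positive barcodes, CCL21, a chemokine of lymphatic endothelium, fell from a mean of 321 to 5.76 CPM (-5.74 ± 0.17, adjusted p 1.06e-16). The complement genes C1QA, C1QB and C1QC of macrophages, together with TYROBP and IL1RN, had a mean of at most 1.5 UMI per ewe in positive barcodes and of 150 to 359 in negative ones. TC2N had 0 UMI in positive barcodes and a mean of 92.5 UMI per ewe in negative ones. These UMI are sums over classes of unequal size and are not scaled for it. Each ewe had 78 to 282 APLN-positive and 969 to 3517 APLN-negative barcodes. CXCL8, a chemokine that draws neutrophils, fell by 4.14 ± 0.24 on the log2 scale, but with the 353 barcodes of immune-like clusters left out the value was -0.47 (adjusted p 0.284). Without those barcodes 162 genes were higher and 209 lower. In the immune-like cluster led by CXCL8, C1QC, C1QB and C1QA, 1 of 322 gated barcodes held APLN. The part of these barcodes in the falls of the C1Q genes, TYROBP and IL1RN was not tested.

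By groups of genes, 5 of 15 basement membrane genes were higher and none lower, with a median log2 fold change of 0.30 against -0.02 over all genes tested. SPARC, a collagen chaperone of the matrix, rose by 0.70 ± 0.09, COL4A1 by 0.54 ± 0.11, COL4A2 by 0.44 ± 0.10 and FBN1 by 0.93 ± 0.09. Of 28 tip cell genes 7 were higher and 1 lower, among them PGF, a VEGF family growth factor, at 0.91 ± 0.20 and UNC5B, a netrin receptor, at -1.20 ± 0.30. Of 13 arterial genes none was higher and 7 were lower, including the gap junction genes GJA4 (-1.87 ± 0.22) and GJA5 (-1.39 ± 0.17) and CXCL12 (-1.31 ± 0.16). Of 7 lymphatic genes 5 were lower and LYVE1 was higher at 0.39. Of 18 genes of the cell cycle 6 were higher and none lower, and in endothelial-like clusters alone, which leave out dividing cells, 0 of 9 passed.

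APLNR-positive barcodes were richer in basement membrane and cell cycle genes and poorer in arterial and lymphatic genes. Of 11244 genes, 491 (4.37%) were higher and 1087 (9.67%) lower. Without HLS replicate 2 and LLS replicate 1 the counts were 548 and 632, and without the ewe block they were 3 and 102.

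Of the 10 genes with the largest rises 7 were genes of dividing cells, namely PIMREG, CENPF, DEPDC1, ASPM, PRC1, BRCA1 and MKI67, with log2 fold changes between 1.10 and 1.48. MKI67, the usual marker of proliferation, stood at 29.9, 71.7 and 87.6 CPM in APLNR-positive barcodes of the HLS and at 128, 53.1 and 179 in those of the LLS ewes. The negative barcodes had 7.25, 51.3 and 26.4 CPM and 79.7, 19.03 and 42.9 CPM, lower in each of the 6 ewes though the classes overlapped (1.10 ± 0.17, adjusted p 2.04e-05). In endothelial-like clusters alone CENPF and MKI67 had log2 fold changes of -0.22 (adjusted p 0.545) and -0.48 (adjusted p 0.35), and PRC1 had 0.23 (adjusted p 0.702).

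The other 3 were DNASE1L3, a secreted nuclease of sinusoidal endothelium (1.37 ± 0.28), LRRC55 (1.26 ± 0.21) and ROBO1, a receptor of Slit guidance proteins (1.12 ± 0.21). DNASE1L3 stood at 120, 58.8 and 21.9 CPM in positive barcodes of the HLS and at 30.1, 26.5 and 56.5 in those of the LLS ewes, against 5.56, 32.7 and 1.67 CPM and 19.7, 2.38 and 13.5 CPM. The smallest differences of DNASE1L3 were in HLS replicate 2 and LLS replicate 1, the ewes with the most APLNR. Among the largest falls were CCL21, from a mean of 368 to 4.19 CPM, SFRP1, a Wnt inhibitor, from 65.7 to 2.03 CPM (-5.53 ± 0.25), and TNFAIP8L3 (-6.20 ± 0.36). TMOD2 had 0 UMI in positive barcodes and a mean of 42.2 per ewe in negative ones, and C1QA, C1QB, C1QC, IL1RN, MSR1 and SCG3 had a mean under 1 UMI per ewe in positive barcodes. These UMI are sums not scaled for class size, which was 74 to 1133 APLNR-positive and 999 to 2666 APLNR-negative barcodes per ewe. The immune-like cluster led by CXCL8, C1QC, C1QB and C1QA gave 322 barcodes to this comparison, all of them APLNR-negative. Their part in the falls of the C1Q genes, IL1RN and MSR1 was not tested.

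Of the 15 basement membrane genes 9 were higher and none lower, with a median of 0.38 against -0.02 over all genes tested, and the network-forming COL4A1 (0.87 ± 0.10), COL4A2 (0.81 ± 0.10) and NID1 (0.75 ± 0.16) led them. Of 18 cell cycle genes 12 were higher and none lower, falling to 0 of 13 in endothelial-like clusters alone. The tip cell genes were divided, with 12 higher and 7 lower of 29. NRP1, a VEGF co-receptor, rose by 0.46 ± 0.08, and the actin-bundling FSCN1 by 0.69 ± 0.09, while CXCR4 (-1.72 ± 0.28), PGF (-1.37 ± 0.29), UNC5B (-1.29 ± 0.31) and the Notch ligand DLL4 (-0.39 ± 0.12) fell. PGF therefore rose in APLN-positive and fell in APLNR-positive barcodes, and its difference between APLN-only and APLNR-only barcodes was not tested since it did not reach the limit of low counts there. Of 15 arterial genes 9 fell, with GJA5 at -1.90 ± 0.19, GJA4 at -1.89 ± 0.17 and CXCL12 at -2.03 ± 0.16. Of 9 lymphatic genes 7 fell and LYVE1 rose, and of 9 venous and 15 capillary genes 3 and 7 fell while 0 and 2 rose.

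ESM1-positive barcodes were richer in basement membrane and tip cell genes and poorer in venous and lymphatic genes. Of 11488 genes, 555 (4.83%) were higher and 1124 (9.78%) lower. Without HLS replicate 2 and LLS replicate 1 the counts were 436 and 406. Leaving out HLS replicate 2 alone gave 358 and 692, leaving out LLS replicate 1 alone gave 360 and 682, and without the ewe block the counts were 25 and 228.

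COL15A1, a collagen of the basement membrane zone, stood at 228, 863 and 258 CPM in ESM1-positive barcodes of HLS replicates 1, 2 and 3 and at 1112, 328 and 310 in those of LLS replicates 1, 2 and 3. The negative barcodes had 40.1, 409 and 68.5 CPM and 531, 114 and 103 CPM. COL15A1 was therefore higher in the positive class of each ewe (1.52 ± 0.14, adjusted p 1.89e-06), and it was highest in both classes in the 2 ewes with the most ESM1. COL13A1, a transmembrane collagen, rose by 1.70 ± 0.34, OIT3, a gene of liver sinusoidal endothelium, by 1.65 ± 0.20, and the metalloprotease ADAM12 by 1.63 ± 0.26. ROBO1 rose by 1.46 ± 0.21 and SPRY4, a feedback inhibitor of growth factor signalling, by 1.40 ± 0.20. ECM1, DAPK2, RRM2 and the non-coding GTL2 rose by 1.29 to 1.44. Genes that fell most, such as APOBEC3A, SCG3, PLA1A and REEP1, had a mean under 1 UMI per ewe in positive barcodes.

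Of the 15 basement membrane genes 10 were higher and none lower, with a median of 0.60 against -0.01 over all genes tested. COL4A1 rose by 1.10 ± 0.11, COL4A2 by 1.06 ± 0.11, NID1 by 1.12 ± 0.20 and SPARC by 0.89 ± 0.11. Of 29 tip cell genes 16 were higher and 2 lower, with ANGPT2, a TIE2 ligand that loosens vessels, at 0.73 ± 0.09, PDGFB, which recruits mural cells, at 0.91 ± 0.12 and NRP1 at 0.68 ± 0.08. The tip cell and basement membrane lists share genes, COL4A1, COL4A2, NID1, NID2 and SPARC among them. Of 9 venous genes 6 were lower and none higher, with SELP at -1.64 ± 0.10 and ACKR1, the chemokine receptor of venules, at -4.17 ± 0.38. Of 10 lymphatic genes 8 were lower. Of 16 arterial genes 1 was higher and 3 lower, but 4 of 15 were higher and 1 lower without HLS replicate 2 and LLS replicate 1. Of 14 capillary genes 3 were higher, GPIHBP1 (0.80), CD300LG (0.68) and OIT3, and 3 lower, and of 18 cell cycle genes 6 were higher and none lower, falling to 0 of 14 in endothelial-like clusters alone.

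**Figure D4:**
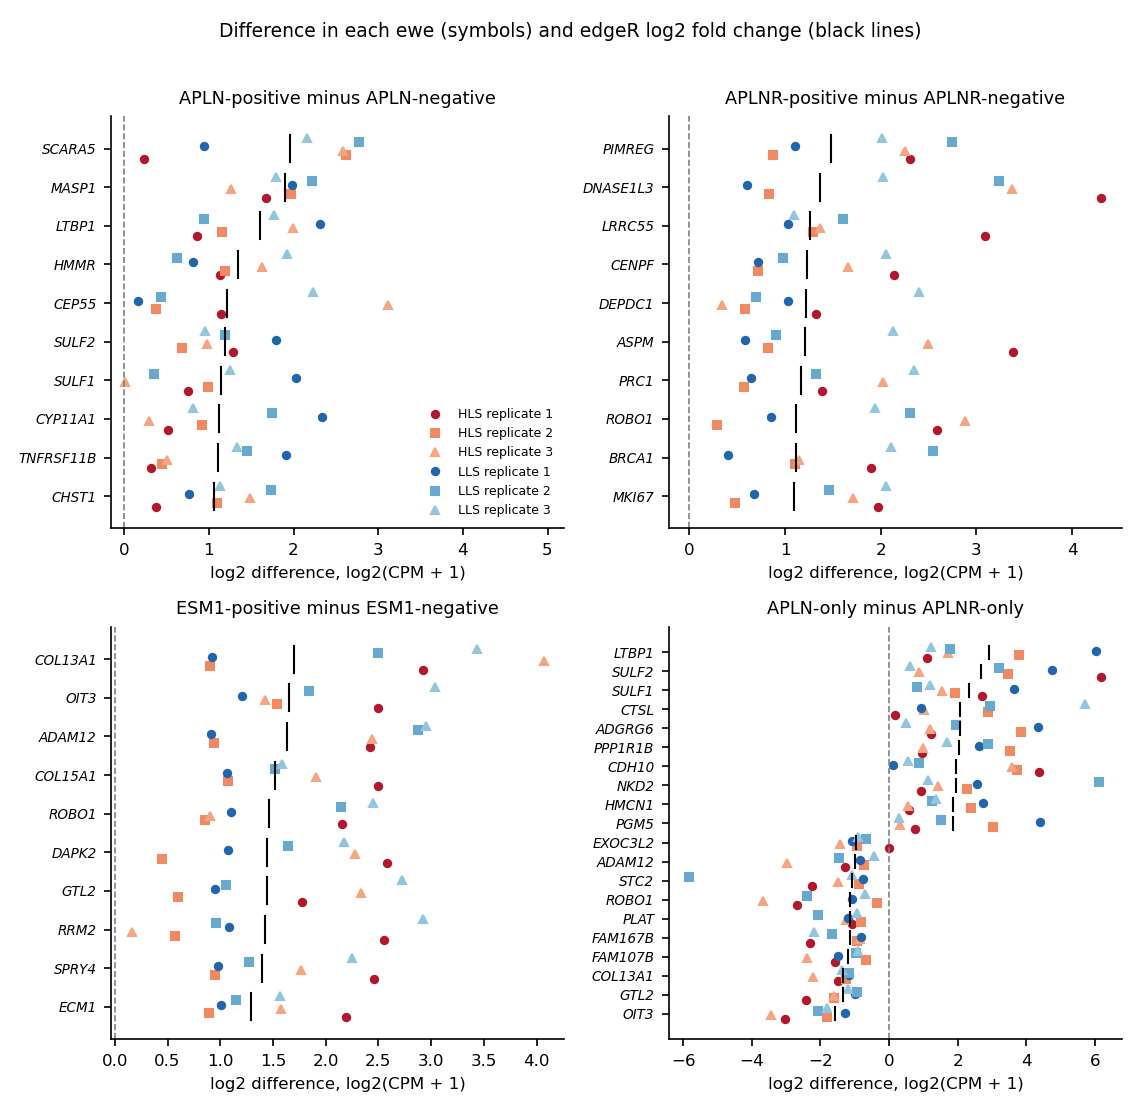
Difference in log2 CPM between the 2 classes in each ewe (symbols) and log2 fold change of edgeR (black lines) for the named genes of the 4 comparisons. The constant added to CPM before the log2 was smaller than the 1 given on the axes. The first 3 panels show higher genes alone, and all 6 ewes lie to the right of 0 because the genes were chosen so. HLS replicate 2 and LLS replicate 1 lie near the left edge for most genes of the ESM1 panel.

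Ligand and receptor were also set against each other. APLN-only barcodes, with APLN and no APLNR, numbered 69 to 238 per ewe, and APLNR-only barcodes 65 to 1037. Of 6160 genes, 147 (2.39%) were higher in APLN-only barcodes and 81 (1.31%) lower. This comparison was the least stable. Without HLS replicate 2, without LLS replicate 1 and without both, 48 and 26, 61 and 25, and 40 and 19 genes passed, without HLS replicate 1 it was 84 and 43, and without the ewe block it was 1 and 0.

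LTBP1 had the largest rise on the side of the ligand, at 125, 147 and 345 CPM in APLN-only barcodes of the HLS ewes and at 469, 272 and 353 in those of the LLS ewes, against 57.5, 10.2 and 104 CPM and 6.71, 79.1 and 152 CPM in APLNR-only barcodes (2.91 ± 0.43, adjusted p 0.000399). HLS replicate 2 and LLS replicate 1 had by far the lowest LTBP1 in APLNR-only barcodes. SULF1 rose by 2.33 ± 0.30 and PPP1R1B, a phosphatase inhibitor, by 2.03 ± 0.26. SULF2 rose by 2.69 ± 0.46 and PGM5 by 1.85 ± 0.41, but without both ewes of the largest cluster they had values of 1.23 (adjusted p 0.0686) and 0.56 (adjusted p 0.447). On the side of the receptor, OIT3 (-1.59 ± 0.20), GTL2 (-1.35 ± 0.16), COL13A1 (-1.34 ± 0.21), FAM167B (-1.15 ± 0.18) and PLAT, the tissue plasminogen activator (-1.15 ± 0.19), were lower in APLN-only barcodes in each of the 6 ewes. OIT3, COL13A1 and GTL2 were among the genes that rose most in ESM1-positive barcodes.

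Of 22 tip cell genes none was higher in APLN-only barcodes and 6 were lower, among them NRP1 (-0.39 ± 0.10), NID1 (-0.76 ± 0.17) and PLXND1 (-0.79). Of 15 basement membrane genes 5 were lower and FBN1 was higher (0.71 ± 0.18). The transcription factor KLF4 (0.95 ± 0.23) and the G-protein subunit GNAQ (0.55 ± 0.12) of the apelin pathway were higher in APLN-only barcodes. Of the remaining groups, 0 of 11 cell cycle genes passed, 1 of 7 arterial genes was lower (EFNB2, -0.81), 1 of 6 venous genes was higher (VWF, 0.52), and of 10 capillary genes CAV1 was higher (0.66) and OIT3 lower. Among 18 VEGF and Notch genes HES1 (0.48) and DLL1 (0.70) were higher and FLT4 (-0.93) and NRP1 lower, and among 16 hypoxia genes HIF1A was lower (-0.50). Of 3 lymphatic genes PROX1 was higher (0.85) and FLT4 lower.

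Components of apelin signalling were tested as a list of 31 genes. Of these genes for peptide processing, G proteins, arrestins and targets, NOS3, the endothelial nitric oxide synthase, rose with APLN (0.52 ± 0.12, adjusted p 0.0102) and RGS2, a brake on G-protein signals, fell (-0.65 ± 0.17). With APLNR, GNG2 (0.54 ± 0.13) and GNAI2 (0.28 ± 0.08), subunits of G proteins, rose, and KLF4 (-1.05 ± 0.15), GNAQ (-0.51 ± 0.09) and KLF2 (-0.48 ± 0.08) fell. With ESM1, 3 rose, GNG2, GNAI2 and HDAC5, and 7 fell, of which the angiotensin-converting enzyme ACE fell most (-2.25 ± 0.42). With APLN 1 gene was higher and 1 lower, and with APLNR 2 and 3, where the shares of all genes tested were 1.81% and 2.83%, and 4.37% and 9.67%. The 3 and 7 of ESM1 stand beside 4.83% and 9.78%. The medians were -0.05, -0.15 and -0.16, against -0.02, -0.02 and -0.01 over all genes tested.

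Among genes of glycosaminoglycan synthesis and of proteins that bind or resemble ESM1, XYLT1, which starts the sugar chains of proteoglycans, rose with ESM1 (1.26 ± 0.23, adjusted p 0.00121). HSPG2 and SDC2, both core proteins of proteoglycans, rose by 0.62 and 0.54, and 6 of the 22 genes fell, among them SRGN (-2.34 ± 0.10), VCAN (-1.95 ± 0.33) and the adhesion molecule ICAM1 (-0.94 ± 0.09). Of the same list, 5 of 21 fell with APLN and none rose, 8 of 23 fell with APLNR while HSPG2 rose, and in the comparison of APLN-only with APLNR-only barcodes 1 of 9 was higher, SRGN at 1.07.

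**Figure D5:**
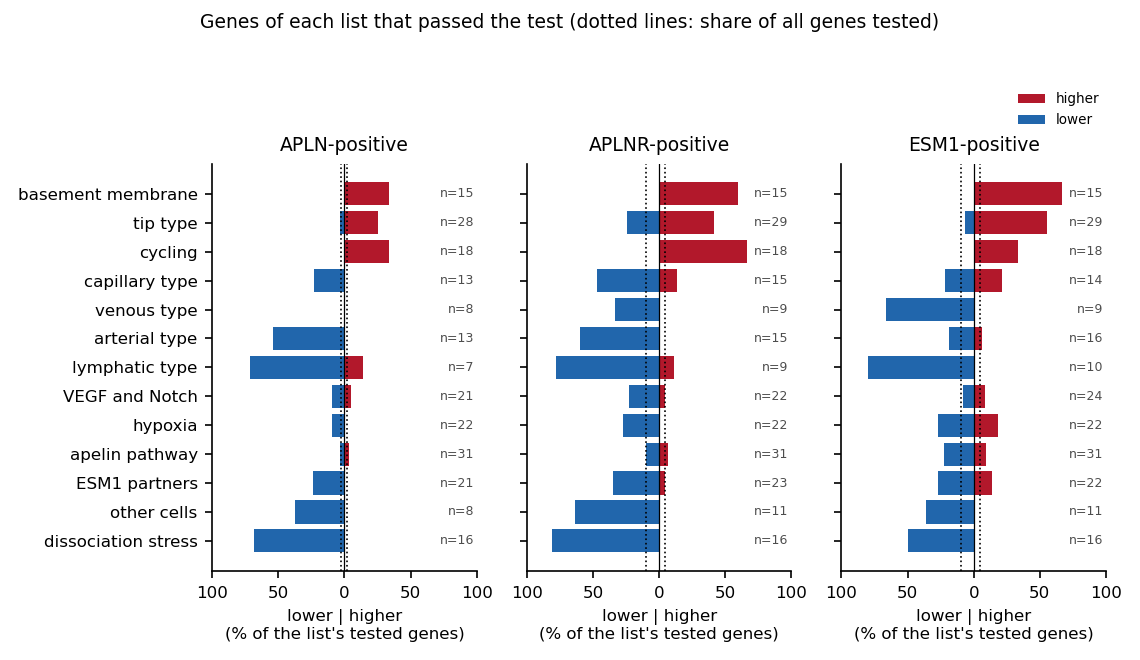
Share of each gene list that was higher (red, right) or lower (blue, left) in positive than in negative barcodes of APLN, APLNR and ESM1, in percent of the n genes tested. The lists were written with earlier results of these data known. Dotted lines give the share of all genes tested, between 1.81% and 4.83% for higher and between 2.83% and 9.78% for lower, and the basement membrane list has no lower gene in the 3 panels.

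Further lists bear on cell state and purity. Of 16 early response genes that also rise when tissue is digested, 11 were lower with APLN, 13 with APLNR and 8 with ESM1 and none was higher, with FOS at -0.29, -0.60 and -0.40. In endothelial-like clusters alone 1 of them was higher and 9 lower with ESM1. APLN-only against APLNR-only barcodes had 2 higher, FOS and IER3, and none lower. Of the markers of other cells that reached the limit of low counts, 3 of 8 were lower with APLN, 7 of 11 with APLNR and 4 of 11 with ESM1 and none was higher, while 0 of 2 passed between APLN-only and APLNR-only barcodes. In endothelial-like clusters alone 0 of 6, 0 of 7 and 0 of 7 of these markers passed. The part of digestion and of RNA from other cells in the differences was not tested. Of 21 VEGF and Notch genes with APLN 1 was higher and 2 lower, of 22 with APLNR 1 and 5, and of 24 with ESM1 2 and 2. Over all genes tested, 1.81% and 2.83% were higher and lower with APLN, 4.37% and 9.67% with APLNR and 4.83% and 9.78% with ESM1. Of 22 hypoxia genes 0 and 2 passed with APLN, 0 and 6 with APLNR and 4 and 6 with ESM1, and of the venous and capillary genes with APLN 0 of 8 and 3 of 13 passed, the 3 being lower.

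The question of the study was the difference between litter sizes, and the HLS and LLS ewes were set side by side last. The 3 genes were chosen by their values in these ewes, so their differences are given with no test. In endothelial barcodes, with UMI summed per ewe, the log2 fold change of HLS over LLS was 0.45 ± 0.33 for APLN, -0.24 ± 0.76 for APLNR and -0.51 ± 1.03 for ESM1 (± SE). Over all 15437 genes fitted by edgeR's quasi-likelihood test none was called (0%), with 213 at an unadjusted p under 0.05 and 5 genes called by DESeq2. The groups did not overlap in 816 genes (5.29%), whereas the values of the HLS and LLS ewes overlapped for each of the 3 members. Sums per ewe do not separate the share of positive cells from the RNA per cell, so the shares of barcodes are given next.

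The share of endothelial barcodes with APLN averaged 10.3% ± 1.83 in HLS and 7.64% ± 2.02 in LLS ewes (SD, n = 3 each), a difference of 2.65 percentage points. The shares of APLNR were 12.6% ± 11.6 and 14.5% ± 13.3 and those of ESM1 18.6% ± 18.8 and 21.7% ± 27.1. The spread between ewes was larger than the differences of APLNR and ESM1, whose sign turned with single ewes. Without LLS replicate 1 the log2 fold change of APLNR was 0.81 and that of ESM1 1.42, without HLS replicate 1 that of APLNR was 0.16, and without both ewes of the largest cluster that of ESM1 was 0.61.

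In cycling, granulosa-like, immune-like, perivascular-like, stromal-like and theca-like cells no gene was called between the groups either (0%). ESM1 in theca-like cells had a log2 fold change of -3.16 ± 1.43, where LLS replicate 1 stood far above the other ewes. ESM1 in granulosa-like cells differed by 0.10 ± 0.31 and APLNR in perivascular-like cells by 0.37 ± 0.67.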

How the data were processed

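RNA of ovarian cells from 3 HLS and 3 LLS ewes was sequenced from its 3' ends in droplets. Per the file headers and the notes of the authors, the deposited values are raw UMI counts per gene and barcode, made with Cell Ranger 5.0.0 and STAR. The genome build is not given in the sources used here, so no positions are stated. Groups and replicate numbers came from the sample titles, and the ewe was the unit of every test.

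Barcodes were retained with at least 200 genes, 1000 UMI and a complexity (log10 genes over log10 UMI) of 0.7, at most 10% mitochondrial and 5% haemoglobin UMI, and no doublet call. Doublets were called against simulated ones at a rate of 0.8% per 1000 barcodes. Cells were clustered by the Leiden method (leidenalg 0.10.2, resolution 0.8) on 30 principal components of 2000 variable genes. A cluster was named from marker lists by scores and by how many of the markers were detected above their mean over clusters, a rule that was settled after the clusters had been seen. The members, gene lists and markers were chosen with earlier results of these data known.

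Levels are UMI per 10000 UMI, and detection and co-detection were read in barcodes thinned to 3000 UMI. Odds ratios had 0.5 added to each cell of the 2 by 2 table. Intervals are 95% exact binomial (Clopper-Pearson) intervals, and they and the limits for a count of 0 (3 counts) cover counting error only. Sums per ewe were tested with edgeR 4.0.16 (TMM, filterByExpr, quasi-likelihood test, Benjamini-Hochberg threshold 0.05) in R 4.3.3. DESeq2 1.42.0 was an alternative. The fit within endothelial barcodes had the ewe as a block. Differences of the members between HLS and LLS ewes are printed without p-values, since the members were chosen by these values. Named genes were the 10 with the largest change in each direction among those past the threshold, changed the same way in all 6 ewes, with a mean of at least 10 UMI per ewe in the class in which they were higher, leaving out identifiers that begin with LOC. Genes of the lists are named as examples, and 1 gene that the rule for likeness would name is not reported here.

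On simulated counts with 200 changed genes, 87.5%, 91.0%, 89.0% and 93.5% were recovered in the comparisons for APLN, APLNR, ESM1 and APLN-only against APLNR-only barcodes. In the same runs 11, 20, 16 and 7 unchanged genes were also called. Between HLS and LLS 19.5% were recovered over all sizes and 40.9% of those changed by the larger of the 2 simulated folds, and 5 unchanged genes were called. Alternatives were the depth of thinning, the gate, the filters, the normalisation, the tool, the block and leaving out ewes. Whether the ewes came from separate flocks or days was not stated, so p-values hold for these ewes alone. Between HLS and LLS they measure the spread between ewes. With the ewe as a block they measure how the difference between classes varied over ewes.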

Additional observations from a re-analysis of the deposited data

How the results depend on the processing

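Counts of genes called moved with the depth of the barcodes and with the block for the ewe. Without thinning 1630, 5363 and 4185 genes passed for APLN, APLNR and ESM1 and 684 for APLN-only against APLNR-only barcodes. At 5000 UMI the counts were 2577 for APLNR and 436 for APLN-only against APLNR-only barcodes. Without the ewe block they were 18, 105, 253 and 1. Without the filter on low counts 939 genes passed for APLN and 351 for APLN-only against APLNR-only barcodes, and by DESeq2 97 passed for the latter. Without HLS replicate 2 and LLS replicate 1, an alternative chosen after seeing the data, 797, 842 and 59 passed for APLN, ESM1 and APLN-only against APLNR-only barcodes. Leaving out 1 ewe gave 270 to 517 genes for APLN, 1067 to 1451 for APLNR, 1042 to 1722 for ESM1 and 74 to 257 for APLN-only against APLNR-only barcodes. The causes were not tested.

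Between HLS and LLS ewes 0 genes passed under edgeR, also when 1 ewe was left out (0 to 0), and 5 under DESeq2. With 1 ewe left out the log2 fold change ranged from 0.26 to 0.75 for APLN, from -1.18 to 0.81 for APLNR and from -1.34 to 1.42 for ESM1. The difference in share ranged from 1.70 to 3.71 percentage points for APLN, from -8.44 to 5.86 for APLNR and from -14.0 to 12.4 for ESM1. The sign of the ESM1 share turned without thinning (0.709) and without HLS replicate 2 and LLS replicate 1 (1.62), where its log2 fold change was 0.61. CENPF and MKI67 in APLNR-positive barcodes turned to -0.22 and -0.48 in endothelial-like clusters, which leave out the clusters of dividing cells. The mean log2 odds ratio rose to 1.39 for APLN with APLNR and to 2.11 for APLNR with ESM1 without thinning.

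Same-numbered ewes did not deviate together (r of -0.25, -0.47 and 0.17). With 3 ewes a group this cannot decide whether equal numbers mark a shared flock or day. The highest r between ewes of different groups were 0.68, for HLS replicate 2 with LLS replicate 1, and 0.49, for HLS replicate 3 with LLS replicate 2. With the replicate number as a block 0 genes passed. With 3 ewes a group a change under the larger simulated fold was rarely recovered.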
